A study of Sus scrofa with 12 samples.

Results

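The regions described here are the N6-methyladenosine (m6A) peaks that the deposited lists place in a 5′ untranslated region of a plus-strand gene, in longissimus dorsi, the long back muscle, of 5-day-old pigs. They were chosen by strand and by the annotation of the peak alone. They number 557 of the 13487 peaks of the series, lie on 227 genes and 20 chromosomes or scaffolds, and make up 8.02% of the 6945 plus-strand peaks. The study set the Large White breed, known for fast lean growth, against the Chinese indigenous Ningxiang breed, to look for methylated transcripts with a part in building muscle. No treatment is given for either breed, and mRNA fragments bound by an m6A antibody were sequenced beside unbound input for 3 replicates per breed. Nothing in the labels ties a replicate to a separate animal, so the p-values below reflect the spread between samples only, and that spread may be technical.

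In mRNA, m6A is written by a methyltransferase complex built on METTL3 and METTL14, is removed by demethylases such as FTO, and is known above all from long internal exons and the region around the stop codon. In 5′ untranslated regions it is less frequent, and there it has been tied to translation that does not need the cap-binding factor, for example of heat shock mRNA under stress. Antibodies to m6A also bind m6Am, the methylated form of the adenosine next to the cap. At the first bases of a transcript the 2 modifications cannot be told apart by this assay.

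On the minus strand 2.23% of 6542 peaks carry the 5′ label, and those peaks are not described here. Each peak has a deposited fold, a linear ratio of antibody-bound over input signal, and a deposited p-value, given here as its log10. Both are the authors' values for that peak, and they describe peaks within a list and do not measure a difference between breeds. Sequencing depth is unknown, and where no peak is listed m6A was not detected rather than shown to be absent. Of 12 skeletal muscle markers, 7 to 9 had a peak of any class in each list, with ACTA1, MB and TTN at none in any list. The range was 2 to 3 of 4 for endothelial, 2 of 4 for leukocyte, 3 of 4 for fibroblast, and 0 to 2 of 4 for satellite cell and for adipocyte markers. A curated transcript exists for 10 of the 12 muscle markers, for 2 of 4 satellite cell markers and for 3 of 4 in each other set. Whether a gene without one could be given a peak was not tested. No sequence is shown, because the reference tables used here hold gene names and positions only.

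The number of 5′ untranslated region peaks differed more between lists of the same breed than between the breeds. Large White replicates 1, 2 and 3 held 83, 95 and 111 of them, and Ningxiang replicates 1, 2 and 3 held 81, 69 and 118. The highest and the lowest counts both came from Ningxiang. The means were 96.3 ± 14.0 in Large White and 89.3 ± 25.5 in Ningxiang (SD, n = 3; exact two-sided permutation test, p = 0.7, adjusted p = 0.84). As a share of plus-strand peaks the lists stood at 6.72%, 8.19% and 8.58% in Large White and at 7.95%, 6.39% and 10.2% in Ningxiang. The mean share was 7.83% ± 0.983 against 8.18% ± 1.92 (SD, n = 3; exact permutation p = 1, adjusted p = 1). Genes with such a peak numbered 94.0 ± 13.5 and 88.0 ± 25.5 (SD, n = 3; exact permutation p = 0.7, adjusted p = 0.84). Without Ningxiang replicate 3 the difference in peak number, Large White minus Ningxiang, went from 7 to 21.3, while its sign turned without Large White replicate 3 (-0.33) and without Ningxiang replicate 2 (-3.17).

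**Figure D1:**
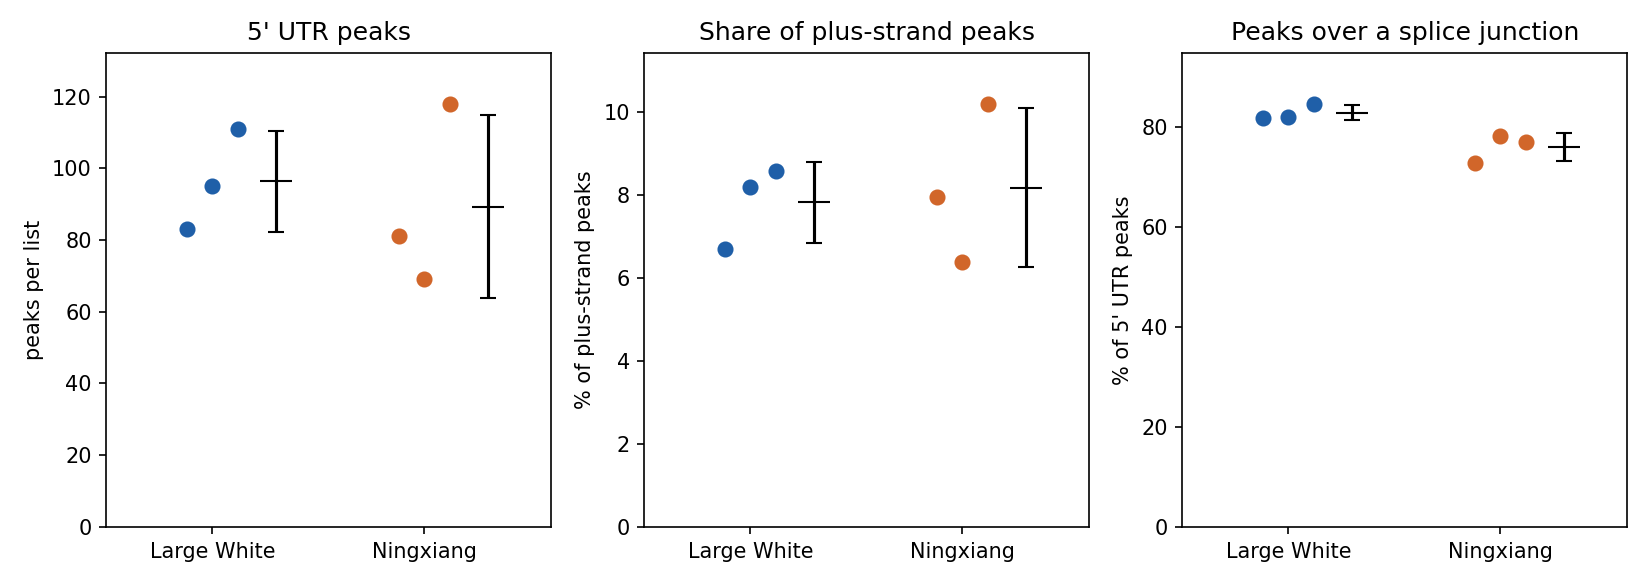
Per-list number of plus-strand 5′ untranslated region peaks (left), their share of plus-strand peaks in percent (middle) and the percent of them that cross a splice junction (right). Points are the 3 lists of each breed and bars the mean and SD. Counts and shares overlap between the breeds, while the 3 Large White lists sit at 81.9% to 84.7% crossing a junction and the 3 Ningxiang lists at 72.8% to 78.3%, a split that the other plus-strand peaks also show (55.4% to 56.8% against 49.9% to 54.4%).

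Most of these peaks began close to the listed start of their gene. Of the 557, 115 began exactly on it, 325 (58.3%) within 100 bp of it and 440 (79.0%) within 500 bp. The median start was 60 bp downstream, and the middle 50% of peaks began between 29 and 236 bp. This position follows from the rule and is given as a description. Peaks were laid on a grid: of 435 starts between 0 and 500 bp, 401 (92.2%) lay within 2 bp of a multiple of 30 bp, so a start is resolved to about 30 bp. Per list, 54.7% to 58.6% of Large White and 54.3% to 64.4% of Ningxiang peaks began within 100 bp (56.2% ± 2.04 against 59.9% ± 5.12, SD, n = 3; exact permutation p = 0.4, adjusted p = 0.8).

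A smaller number began far inside or before the listed gene. A start beyond 500 bp was found for 108 peaks, and one beyond 10000 bp for 43 peaks on 19 genes. PALM2AKAP2, a long locus joining a membrane protein and a kinase anchor protein, had all its 5′ peaks there, with starts from 243712 to 330575 bp into the gene. A further 14 peaks on 7 genes began before the listed start, among them peaks of MRPL40, of the mitochondrial ribosome, and PRXL2A. For 4 genes the listed start itself differed between peaks.

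The edge of the class was not the edge of the signal. Among all 537 plus-strand peaks that began within 100 bp of a listed gene start, 325 (60.5%) had the 5′ label, while 202 were labelled exon and 10 were labelled 3′ untranslated region. Those 212 peaks lay on 88 genes and had a median fold of 2.795. ZFP36, which directs decay of AU-rich mRNA, is an example in which the label differed between lists. Its peak covered a first block of 25 bp and then a long block from 868 bp in Large White replicate 3 and all Ningxiang lists, with folds of 3.34, 3.56, 3.54 and 5.06. In Large White replicates 1 and 2 the peak held only the long block, from 872 bp, with folds of 3.35 and 4.05, and was labelled exon. HMGA1, a chromatin architectural protein, had 5′ peaks of 3.25- to 5.51-fold in 5 lists at a log10 p of -129 or lower, while its peak of 4.17-fold in Large White replicate 3 was labelled 3′. Both genes were picked after their values were seen, and what set the label was not tested.

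**Figure D2:**
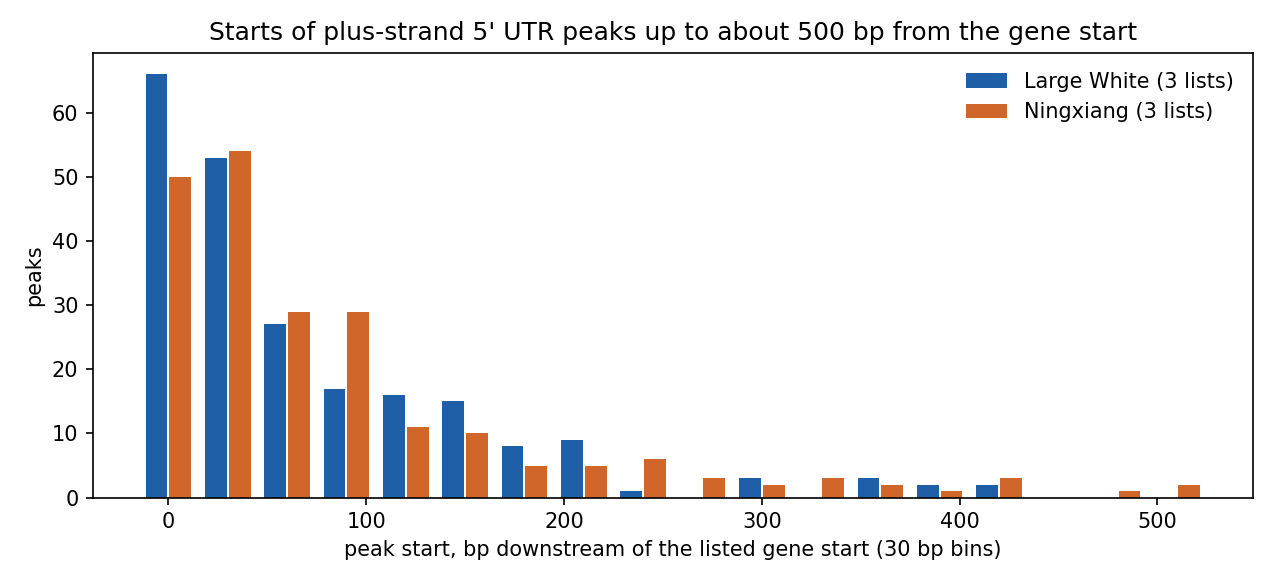
Starts of the 5′ untranslated region peaks, in bp downstream of the listed gene start and in bins of 30 bp, summed over the 3 lists of each breed. Bars fall away from the gene start in both breeds. Of all 557 peaks, 115 begin on the start itself.

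Peaks in 5′ untranslated regions were mostly split over several exons. In all, 444 of 557 (79.7%) crossed a splice junction, up to 13 exonic blocks were joined in a single peak, and 55.3% of their exonic bases lay outside the first block. Whether those bases are coding was not tested. The share crossing a junction exceeded that of the other plus-strand peaks in every list, by 25.2 ± 3.22 percentage points (SD, 6 lists; exact sign-flip permutation test, p = 0.03125, the smallest 6 lists can give, adjusted p = 0.0625). The span of a peak may enter into its class, so this measure was not shown to be independent of the rule. Between breeds the values did not overlap: 81.9%, 82.1% and 84.7% in Large White, and 72.8%, 78.3% and 77.1% in Ningxiang (82.9% ± 1.54 against 76.1% ± 2.86, SD, n = 3; exact permutation p = 0.1, the smallest possible, adjusted p = 0.6). The other plus-strand peaks were split by breed as well, at 55.4%, 55.8% and 56.8% in Large White and 53.6%, 54.4% and 49.9% in Ningxiang, so the split was not shown to be particular to the 5′ class.

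Exonic length did not separate 5′ untranslated region peaks from other peaks. Their median covered 239, 235 and 211 bp of exon in the Large White lists and 211, 210 and 209 bp in the Ningxiang lists (228 ± 15.1 against 210.0 ± 1, SD, n = 3; exact permutation p = 0.2, adjusted p = 0.6). Single peaks covered 117 to 1252 bp. The median minus that of other plus-strand peaks was 28, 25 and -26 bp in Large White and 1, 0 and -1 bp in Ningxiang (exact sign-flip p = 0.6875 over 6 lists). The genes that carried them had a shorter median listed length in every list, 14099 to 19687 bp, against 19733 to 21245 bp for genes of other plus-strand peaks. A gene with both kinds of peak entered both medians, as 41.0% to 55.6% of the genes with a 5′ peak did per list. The mean difference of these medians was -3960 ± 1501 bp (SD, 6 lists; exact sign-flip permutation p = 0.03125, adjusted p = 0.0625), a comparison added after the values were seen.

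The median fold of 5′ untranslated region peaks was slightly above that of other plus-strand peaks in each list. It was 2.68, 2.75 and 2.53 in Large White, where other peaks had 2.55, 2.58 and 2.49. It was 2.53, 2.58 and 3.23 in Ningxiang, where other peaks had 2.40, 2.49 and 2.535. The mean difference was 0.209 ± 0.242 (SD, 6 lists; exact sign-flip permutation p = 0.03125, adjusted p = 0.0625), and 0.112 without Ningxiang replicate 3. With only the strongest peak of each gene by p it was 0.0508 (exact sign-flip p = 0.96875), so the order did not hold by gene. Against plus-strand 3′ untranslated region peaks the fold was higher in 3 lists and lower in 3, with a mean difference of 0.115 ± 0.259 (SD, 6 lists; exact sign-flip p = 0.40625, adjusted p = 0.4875).

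Ningxiang replicate 3 stood apart in this class. There 30 of 118 peaks (25.4%) had a fold above 5, a mark set after the values were seen, against 8.70% to 15.7% in the other 5 lists. Its other plus-strand peaks had 10.4%, within a range of 7.57% to 10.4% over all lists. The same list had the weakest median p of the class, with a log10 p of -9.96 where the other lists had -11.8 to -14.1. The highest fold of the class, 21.4, was also there, on BMP2, which encodes a bone morphogenetic protein, at a log10 p of -5.26. Over all lists the median -log10 p was higher by 2.29 ± 1.75 than that of other plus-strand peaks, in 5 of 6 lists (SD; exact sign-flip permutation p = 0.0625, adjusted p = 0.09375).

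**Figure D3:**
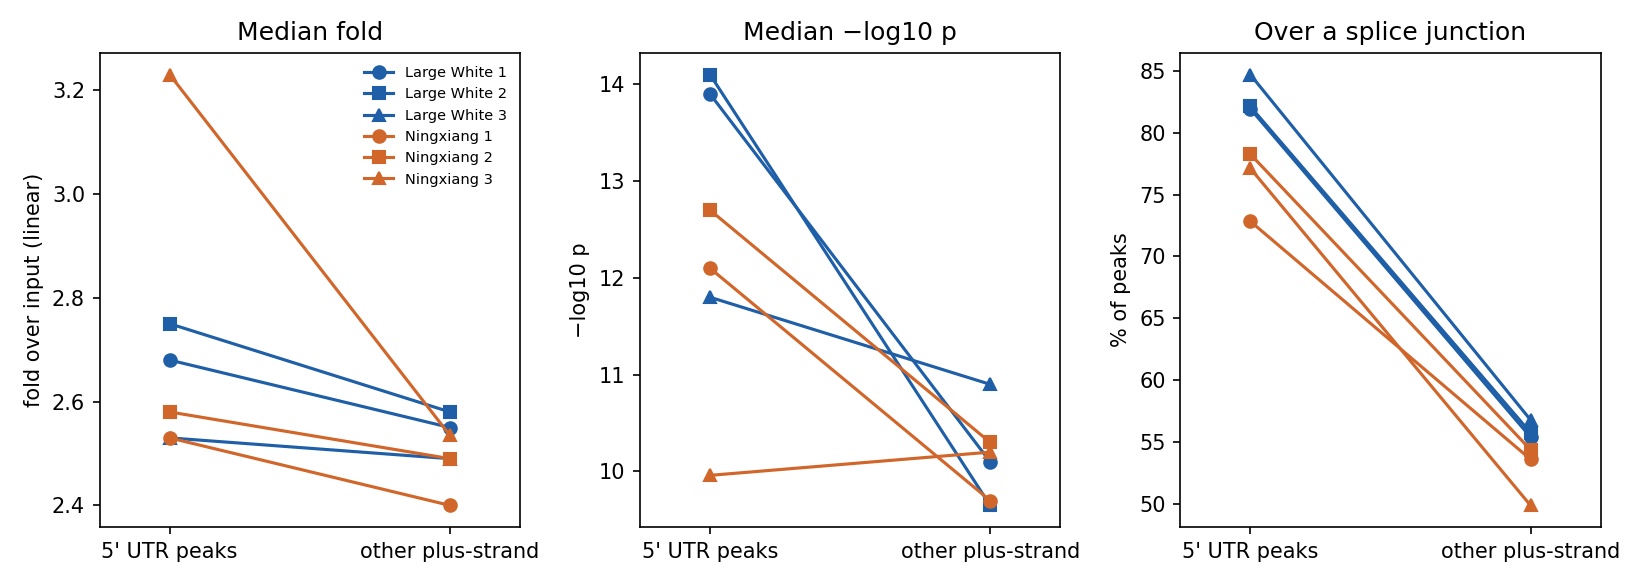
Median fold over input (left), median -log10 p (middle) and percent of peaks crossing a splice junction (right) for 5′ untranslated region peaks and for all other plus-strand peaks, joined within each of the 6 lists. The vertical axes do not start at 0. Ningxiang replicate 3 has the highest 5′ fold, 3.23, and the lowest 5′ median -log10 p, 9.96. All 6 lines for splice junctions slope the same way.

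In each list, 33 to 69 genes had the 5′ peak as their only plus-strand peak. Of the genes with such a peak, 41.0% to 55.6% per list also had a plus-strand peak of another class, and 23.1% to 37.0% had one in the 3′ untranslated region. Genes with a 3′ peak had a peak of another class in 33.6% to 45.8%. Where a gene had both, its highest 5′ fold exceeded the highest fold of all its other peaks in 17 to 35 genes per list and was below it in 12 to 26. The median log2 ratio of these 2 folds ran from 0.05 to 0.32. Ningxiang replicate 3 again gave the widest gap, with 35 genes higher and 12 lower.

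A 5′ peak was listed in all 6 lists for 17 genes (7.49%) and in 1 list only for 101 genes (44.5%). For 3′ untranslated region peaks the same shares were 20.7% and 30.3% of 575 genes. The 227 genes left 816 pairs of gene and list without a 5′ peak. In 475 of these (58.2%) the gene had a plus-strand peak of another class. In 208 of the 816 (25.5%) a plus-strand peak covered bases that the 5′ peaks of the gene covered in other lists. That peak could be listed under another gene, as for MITF, so the 208 are not all among the 475. The Jaccard index of genes, which is the share of genes held in common, was 0.340 to 0.438 between Large White lists, 0.278 to 0.354 between Ningxiang lists and 0.301 to 0.409 across breeds. Over 3′ untranslated region peaks it was 0.429 to 0.529 for all pairs. Each list enters several pairs, so these values carry no test.

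Of the 17 genes marked in every list, 14 are described here, and they fell into a few roles. They were regulators of transcription and chromatin (JUN, BTG2, BRD2, MSL3 and HMGN2), signalling proteins (PPP2R5D, RIT1 and TNFSF13), a muscle structural protein (MYOT), and CD68, HMOX1, HSDL2, ZCCHC9 and PALM2AKAP2.

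JUN, an immediate early subunit of the AP-1 transcription factor, had some of the strongest peaks by p. Its folds were 2.63, 2.72 and 2.64 in Large White replicates 1, 2 and 3 and 2.84, 3.15 and 8.76 in Ningxiang replicates 1, 2 and 3. The Ningxiang values all exceeded the Large White ones. The log10 p ran from -137 to -368, and the same 420 exonic bases were covered in all 6 lists, chromosome 6, 153686545 to 153686964 (susScr11), 120 to 539 bp from the gene start. In Ningxiang replicate 3 the JUN peak reached 780 exonic bp, against 420 to 480 bp elsewhere.

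BTG2, an antiproliferative early-response gene, had its peak begin 30 bp from the gene start in all 6 lists. Its folds were 2.78, 2.73 and 3.32 in Large White and 2.22, 2.61 and 3.35 in Ningxiang, and the breeds overlapped. In every list the first block ran from 30 to 252 bp and the second began at 1519 bp, across the intron. The 269 common exonic bases lie between 64033883 and 64035417 on chromosome 9. The log10 p was -36.6 or lower.

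MYOT encodes myotilin, a protein of the Z-disc that binds actin and alpha-actinin. Its folds were 2.68, 2.85 and 2.55 in Large White and 2.25, 2.44 and 2.25 in Ningxiang, with the lowest Large White value above the highest Ningxiang one. The peak had a log10 p of -361 or lower in all lists, down to -700 in Large White replicate 2. It covered 658 common exonic bases in 3 blocks between 139902547 and 139909583 on chromosome 2, and began 3018 to 3138 bp after the listed start.

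MYOT and JUN were the only ones of the 17 genes whose folds did not overlap between breeds, 1 in each direction (5.88% each). Among the 393 genes with any plus-strand peak in all 6 lists, the highest fold separated the breeds with Large White above in 9.41% and with Ningxiang above in 5.85%. The share among the 17 is near or below that background, and these folds carry no test between breeds.

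Among the chromatin proteins, BRD2, a bromodomain reader of acetylated histones, had weak folds of 1.84 to 2.35 and no base common to all 6 lists, although each list had a peak 3038 to 3487 bp into the gene. MSL3, a subunit of a histone acetyltransferase complex, ranged from 2.44 to 3.29 with 180 common bases on chromosome X. HMGN2, a nucleosome-binding protein, had the lowest folds of the group, 1.73 to 1.94, at a log10 p of -39.4 or lower. HMGN2 has many near-identical copies in mammalian genomes, so its reads may be shared.

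Of the signalling genes, PPP2R5D, a regulatory subunit of protein phosphatase 2A, had folds of 3.00, 7.95 and 3.35 in Large White and 4.28, 4.35 and 6.41 in Ningxiang, with a log10 p of -20.5 or lower. RIT1, a Ras-like GTPase, ranged from 2.23 to 4.26. TNFSF13, a cytokine of the tumour necrosis factor family, ranged from 1.97 to 3.73 and was weak by p, at -2.87 in Ningxiang replicate 2.

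CD68, a lysosomal protein of macrophages, had the highest minimum fold of the 17 genes. Its folds were 4.59, 12.8 and 8.86 in Large White and 7.07, 4.24 and 8.98 in Ningxiang, and the breeds overlapped. Every peak began 30 bp from the gene start, and 330 exonic bases from 52874784 to 52875198 on chromosome 12 were common to all lists. Peaks on 3 of the cell type markers of non-muscle cells carried the 5′ label: CD68, CDH5, the cadherin of endothelium, and LUM, a matrix proteoglycan of fibroblasts, with CDH5 and LUM in 3 Large White and 2 Ningxiang lists. The CDH5 folds were 2.69 to 3.50. LUM had 12.3 in Large White replicate 3 and 1.86 to 2.41 in the other 4 lists. Which cells of the muscle the RNA came from was not tested.

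HMOX1, the stress-induced haem oxygenase, ranged from 2.32 to 9.40. The highest of these belonged to Large White replicate 3, where its log10 p was -10.1, and it was -53.5 in Large White replicate 2 at a fold of 2.65. ZCCHC9, a zinc-finger protein, ranged from 2.64 to 13, with 13 in Large White replicate 3 only and 3.94 as the next value. HSDL2, a peroxisomal dehydrogenase-like protein, began on its gene start in every list. Its 5′ peak covered 505, 535 and 505 exonic bp over 5 exons in Large White, and 120, 209 and 179 bp over 2 exons in Ningxiang. In Ningxiang the later exons belonged to a separate peak labelled exon, with folds of 2.62, 2.28 and 2.82. The stretch was thus 1 peak in the Large White lists and 2 in the Ningxiang lists.

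**Figure D4:**
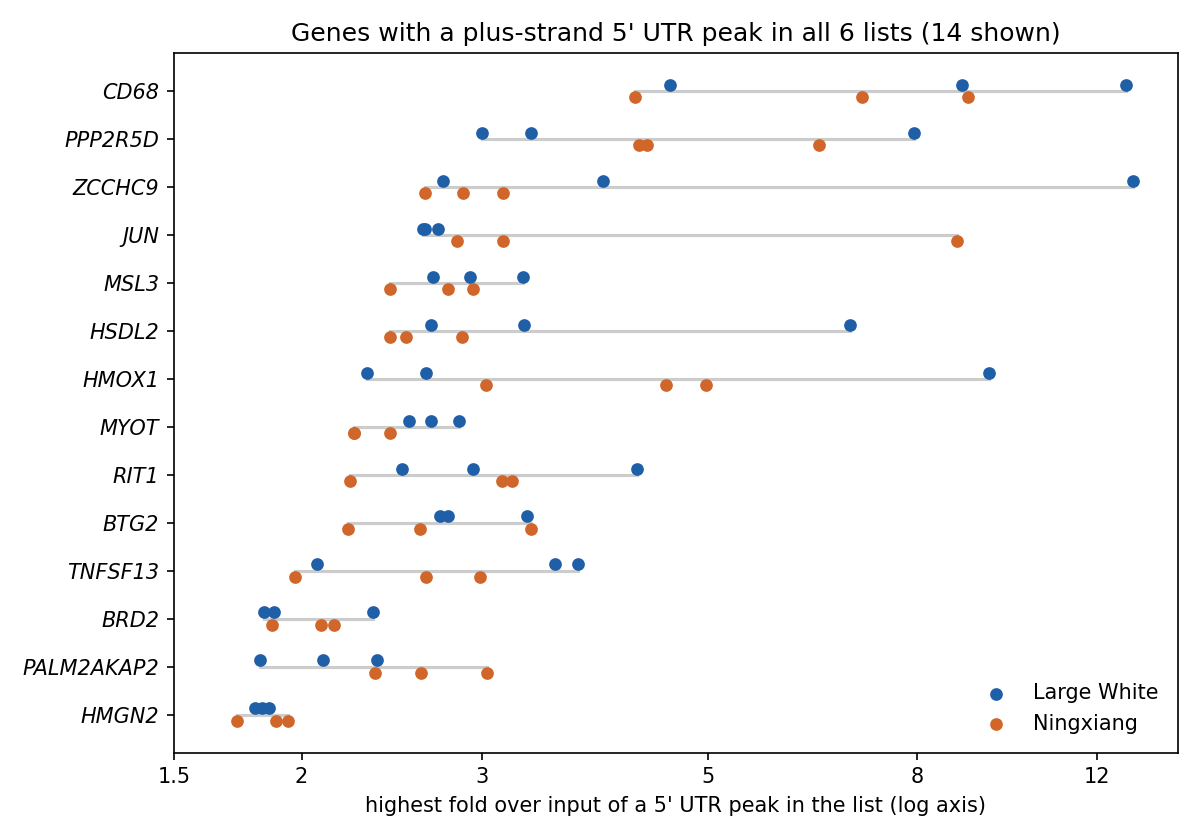
Highest fold over input of a 5′ untranslated region peak in each list (log axis) for 14 of the 17 genes with such a peak in all 6 lists, ordered by their lowest value. Blue points are the 3 Large White lists and orange points the 3 Ningxiang lists. The breeds separate for MYOT and JUN, CD68 has the highest minimum, 4.24, and HMGN2 does not exceed 1.94.

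Few genes had a 5′ peak in every list of a breed and in none of the other. There was 1 such gene in Large White, USP7, and there were 2 in Ningxiang, BAG1 and HMGB2, of 227 genes (0.441% and 0.881%). By the same rule over all 1098 genes with any plus-strand peak the background was 1.46% for Large White and 0.729% for Ningxiang, and over 3′ untranslated region peaks 1.39% and 1.04%. These counts are near or below the background, and 3 lists against 3 cannot call a single gene. Each of the 3 genes had a peak of another class in at least 1 list of the other breed. With a list left out, so that 2 lists of a breed sufficed or 2 had to lack the peak, the counts ran from 2 to 10 for Large White, 10 without Large White replicate 1, and from 2 to 8 for Ningxiang, 8 without Ningxiang replicate 2. The share over all plus-strand genes was not computed for this looser rule, so these counts cannot be set against a background.

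USP7, a deubiquitinase that acts on p53 and MDM2, had 5′ peaks of 14.0-, 5.36- and 3.25-fold in Large White replicates 1, 2 and 3. They began 30, 60 and 60 bp from the gene start, at 33754387 to 33754417 on chromosome 3. Ningxiang replicates 1 and 3 had a peak on the same exons, labelled exon, that began 89 and 119 bp from the start, with folds of 2.86 and 2.64. Ningxiang replicate 2 had none there. They shared 240 and 210 exonic bases with the Large White peaks, so the label separated the breeds in lists where the covered bases overlapped.

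In HMGB2, a chromatin protein that bends DNA, the breeds differed over the first exon and overlapped downstream. All 3 Ningxiang peaks began on the gene start and held the first exon, from 0 to 111 bp, with folds of 2.83, 2.56 and 3.58 and a log10 p of -24.7 or lower. No Large White list had a peak over that exon, and their nearest peaks, labelled exon, began 561, 561 and 531 bp downstream with folds of 1.91, 1.84 and 1.73. All 178, 267 and 178 exonic bases of these peaks lay within bases that the Ningxiang 5′ peaks covered. The strongest Ningxiang peak spans 16710051 to 16710868 on chromosome 14. BAG1, a cochaperone of Hsp70, had a single-block peak in the Ningxiang lists, 119 or 148 bp from the start, with folds of 2.32, 2.05 and 1.90. It lies at 33227747 to 33227895 on chromosome 10 in replicate 1. No Large White list had a peak there, and only replicate 1 had any peak on BAG1, in later exons.

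**Figure D5:**
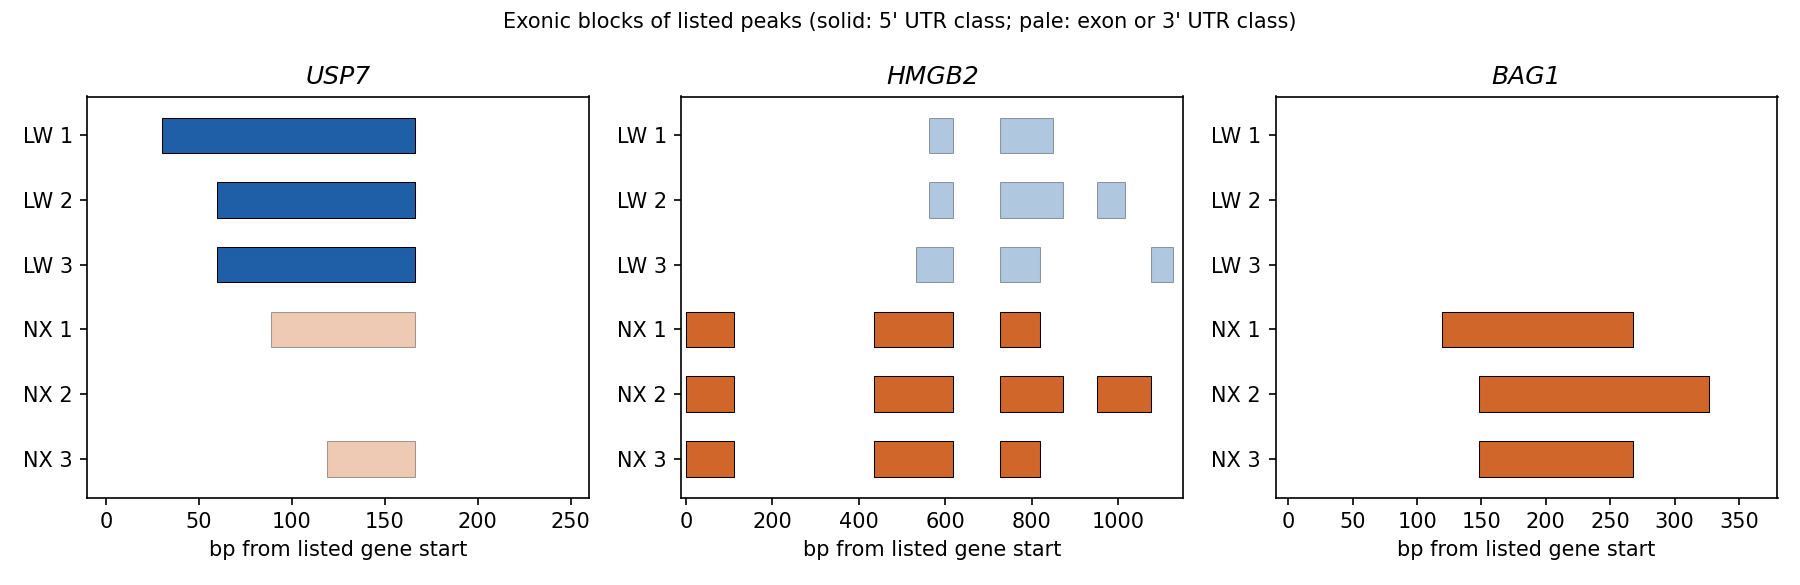
Exonic blocks of the listed peaks near the start of USP7, HMGB2 and BAG1, in bp from the listed gene start, 1 line per list (LW, Large White; NX, Ningxiang). Solid bars have the 5′ untranslated region label and pale bars another class. USP7 blocks begin at 30 to 60 bp in Large White and 89 to 119 bp in Ningxiang replicates 1 and 3; the first HMGB2 exon, 0 to 111 bp, is covered in the 3 Ningxiang lists.

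Of 30 sarcomere and cytoskeleton genes, 21 have a curated transcript and 17 had a peak on either strand. A plus-strand peak was listed for 6 and a 5′ peak for 3: TNNT3, TNNI2 and ACTC1. Over all genes with a plus-strand peak, 227 of 1098 (20.7%) had a 5′ peak, and counts this small do not set a list apart from that share. TNNT3, the troponin T of fast fibres, had the strongest peaks of the class by p, at a log10 p of -2250 to -3920. Its folds were 2.39, 2.56 and 2.23 in Large White replicates 1, 2 and 3, and 2.04 and 2.82 in Ningxiang replicates 2 and 3. These peaks began on the gene start, had a first block of 26 bp, and joined 9 to 13 short exons. In Ningxiang replicate 1 the TNNT3 peaks began 10108 bp into the gene, so that list had none with the 5′ label. TNNI2, the inhibitory troponin of fast fibres, had a 5′ peak in Large White replicate 2 only, and ACTC1, the cardiac actin also made in developing muscle, in Ningxiang replicate 3 only. Of 20 myogenic regulators, 15 have a curated transcript and 15 had a peak on either strand. A plus-strand peak was listed for 5 and a 5′ peak for 1. Plus-strand counts thus leave out genes of these lists with peaks on the minus strand.

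Of 24 immediate early genes, 14 have a curated transcript and 14 had a peak on either strand. A plus-strand peak was listed for 9 and a 5′ peak for 4: JUN, BTG2, KLF6 and NR4A3. Over all genes with a plus-strand peak 20.7% had a 5′ peak, and counts this small do not set the list apart from that share. NR4A3, an orphan nuclear receptor, had folds of 5.92 and 4.81 in Large White replicates 1 and 2 and 6.33 in Ningxiang replicate 3. Its log10 p was -205, -241 and -25. In Large White replicate 3 and Ningxiang replicate 2 NR4A3 had peaks of another class, and a plus-strand peak covered bases of these 5′ peaks. KLF6, a zinc-finger factor, had folds of 2.35 and 2.58 in Large White replicates 2 and 3 and 2.01 and 3.42 in Ningxiang replicates 1 and 3. In Large White replicate 1 and Ningxiang replicate 2 KLF6 had a peak of another class, and a plus-strand peak covered bases of these 5′ peaks.

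Of 35 lipid genes, 32 have a curated transcript and 25 had a peak on either strand. A plus-strand peak was listed for 18 and a 5′ peak for 4, where the share over all genes with a plus-strand peak was 20.7%. SCD, the desaturase that makes oleic acid, had folds of 1.71, 1.68 and 1.76 in Large White and 1.69 in Ningxiang replicate 2, each over the same 180 exonic bases that begin 30 bp from the gene start. Its log10 p was -47.7, -30 and -35.1 in Large White and -9.08 in Ningxiang replicate 2. ACSL3, which activates fatty acids, had folds of 1.97 and 2.06 in Large White replicates 2 and 3 and of 1.92, 2.72 and 4.27 in Ningxiang. PPARD, a nuclear receptor of fatty acid oxidation, had a 5′ peak in 2 lists of each breed, with folds of 1.74 to 3.42 and no base common to all 4. PLIN3, a lipid droplet coat protein, had one in 1 Ningxiang list.

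Of 27 TGF-beta, BMP, Wnt and Notch genes, 18 have a curated transcript and 16 had a peak on either strand. A plus-strand peak was listed for 8 and a 5′ peak for 3. SMAD3, which carries TGF-beta signals to the nucleus, had folds of 3.81 and 3.80 in Large White replicates 2 and 3 and no 5′ peak elsewhere. BMP2 and HES1, a Notch target, had one in 1 list each. In Large White replicates 1 and 3 and Ningxiang replicates 1 and 2 a plus-strand peak covered bases of the HES1 5′ peak. None of the 5 insulin, IGF and mTOR genes with a plus-strand peak had a 5′ peak, nor did the 5 ubiquitin and autophagy genes or the 1 gene of the m6A machinery. On either strand a peak was listed for 14, 10 and 3 genes of these lists, where 14, 11 and 3 have a curated transcript. In the heat shock and stress list HMOX1 was the 1 of 4. Of the ribosome and translation factor list 1 of 4 had one, RPL7, of the large ribosomal subunit, in 1 Large White list. RPL7 has many processed copies, so its reads may be shared.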

How the data were processed

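Of the 12 samples, the 6 antibody-bound ones were used, each through the peak list its description names. The deposited fold is a linear ratio, and per the file headers each peak also has a p-value with its log10, used as a score. Per the submitters' processing notes, ChIPseeker 1.30.2, HOMER, FastQC 0.11.9 and the build susScr11 were used. Which aligner and caller made the lists is not given in the sources used here. Lists were made per replicate. Starts count from 0 in the files and are printed after adding 1. Distance runs from the gene start listed beside the peak, and length is the sum of exonic blocks. The gene is the nearest one listed. It differs from the symbol of the peak's own identifier for 33 peaks on 10 genes, and for 2 of these genes the identifier was not matched in the RefSeq table of Sscrofa11.1.

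Breeds were compared with exact two-sided permutation tests over 20 assignments of the lists, where the smallest p is 0.1. Peaks of the class were compared with other plus-strand peaks by exact sign-flip tests over 6 lists. Benjamini-Hochberg adjustment ran over 6 comparisons in each family. Regions and gene lists were chosen with earlier results of these data known. Named genes were those with a 5′ peak in all 6 lists, those in 3 of 3 against 0 of 3, and members of the fixed lists in at least 2 lists. Others are named where a count was 5 or fewer. A few genes that meet these rules are not reported here. Alternatives were the stronger 50% of peaks by p, 2034 peaks from every list, peaks with a midpoint in the first 50% of the gene, 1 peak per gene, a window of 500 bp, merged regions, a replicate block and leaving out each list, and, added after seeing the data, the gene of the peak's own identifier and all plus-strand peaks that begin within 100 bp of a gene start. The tests were checked on simulated data. Python 3.11.15, pandas 2.3.3, NumPy 2.4.6 and matplotlib 3.10.9 were used.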

Additional observations from a re-analysis of the deposited data

How the results depend on the processing

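Of 153 recomputed values, 103 were labelled as unchanged. For a difference the label meant the same direction and the same side of a threshold of 0.05 in its exact permutation or sign-flip test. For a count of genes or regions listed in 1 breed only, it meant a change by a factor of 1.5 at most. The exact permutation test between breeds cannot give p below 0.1, or below 0.25 with the replicate block. For breed differences the side was thus fixed in advance, and the label reflects direction alone. Differences below are Large White minus Ningxiang, or 5′ untranslated region peaks minus other plus-strand peaks. Restricted to the 50% of peaks with the lowest p in a list, the breed difference turned for the share of plus-strand peaks, to 0.554 percentage points, and for starts within 100 bp of the gene start, to 0.866. With 2034 peaks from every list it turned for the number of peaks, to -1.67, and of genes, to -2.33. With 1 peak per gene the fold difference was 0.0508 and the exonic length difference turned to -8 bp. With all peaks that begin within 100 bp of a gene start, whatever their class, the fold difference was 0.307 (exact sign-flip p = 0.0625). The genes with a 5′ peak in 3 of 3 lists of 1 breed and 0 of 3 of the other numbered 0 for Large White and 0 for Ningxiang where absence meant no peak of any class. They numbered 2 (SCD and USP7) and 1 (HMGB2) with those 50% of peaks, which lacked the SCD 5′ peak of Ningxiang replicate 2. With peaks of any class that begin within 100 bp of a gene start in place of 5′ peaks, the counts were 0 and 2 (EIF4G1 and HMGB2). EIF4G1 had no 5′ peak in any list. By 3 of 3 against 0 of 3 for the 5′ label, 8 of 631 merged exonic regions were Large White only, on HSDL2, MRPL40, PRXL2A and USP7. Ningxiang only were 4, on BAG1 and HMGB2. These regions are exonic blocks, several to a gene. Peaks labelled exon or 3′ in Ningxiang lists covered bases of the HSDL2, MRPL40 and USP7 regions. Exon peaks in Large White lists did so for the HMGB2 regions other than the first exon. For these gene and region counts no background share was computed. Region counts were equal at overlaps of 1 bp and 50%, but both began from the same regions. The cause was not tested.

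With each list left out in turn, the breed difference ran from -3.17 to 21.3 for peaks, -1.25 to 0.659 for their share and -3.50 to 20.5 for genes. It ran from 13 to 27 bp for exonic length, 5.22 to 7.93 for splice junctions and -6.40 to -1.36 for starts within 100 bp. Against other plus-strand peaks, the fold difference ran from 0.112 to 0.243, exonic length from -0.2 to 10.6 bp, splice junctions from 24.6 to 26.4 points and gene length from -4440 to -3535 bp. With 5 lists the smallest sign-flip p is 0.0625, so fold, splice junctions and gene length miss 0.05 there by construction. Genes listed in 1 breed only ran from 2 to 10 for Large White and from 2 to 8 for Ningxiang, with no background computed for that looser rule.

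The replicate numbers were not found to pair the lists: deviations of same-numbered lists correlated at 0.0242, 0.0128 and -0.0270 over 1098 genes. With the replicate block the breed differences kept their values, 7 peaks, -0.354 points of share, 6 genes, 18.3 bp, 6.83 points for splice junctions and -3.63 for starts, with exact p from 0.25, the smallest possible, to 1. No per-peak read depth was used, so a missing peak in 1 list may lie just under its calling threshold.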
